A study of Mus musculus with 3 samples.

Results

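Mesenchymal cells of the mouse palatal shelf that carried at least 1 molecule of Pax9 RNA were examined in 3 single-cell libraries, from embryonic stages E13.5, E14.5 and E15.5. The cells were selected on their own UMI counts. A cell belonged to the set when it had at least 500 detected genes, at least 1 unique molecular identifier (UMI, the tag that counts a captured RNA molecule once) of Pax9 and at least 1 UMI of Prrx1, Prrx2, Twist1, Twist2 or Pdgfra. It also had to have no UMI of Epcam, Krt14, Pecam1, Tyrobp, Sp7 or Ibsp, which mark epithelium, endothelium, myeloid cells and osteoblasts. There were 628 such cells among the 8107 cells with 500 genes, namely 81 of 3692 at E13.5, 190 of 1775 at E14.5 and 357 of 2640 at E15.5. They were compared with the 2496 cells that passed the same conditions with 0 Pax9 UMIs (707, 744 and 1045), called Pax9-0 cells here. The rule reads Pax9 and the 11 other genes directly, so the levels of these 12 genes describe the choice of cells and are not findings.

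All 3 libraries came from wild-type embryos of the C57BL/6J strain, with the palates of 3 embryos pooled per stage before dissociation with TrypLE and methanol fixation, so that each stage is 1 library and no embryo can be told from another. The series was made to describe gene expression in the growing secondary palate and to follow Wnt signalling there in relation to Pax9. No mutant or treated sample is used here. With 1 library per stage no test between stages was possible, and intervals on single values cover counting error only.

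Pax9 is a paired-box transcription factor of neural crest derived mesenchyme in the palatal shelves and the tooth buds, and mouse embryos without it have a cleft secondary palate and no teeth past the bud stage. The shelves grow down beside the tongue, lift above it and then fuse in the midline over the days sampled. Their mesenchyme holds cells that will form palatal bone, loose connective tissue, tooth papilla and cartilage-like tissue, and Wnt, Bmp, Fgf and Hedgehog signals pass between it and the epithelium. Osr2, Msx1 and Barx1 are other transcription factors of this mesenchyme, and Shox2 and Barx1 are known as markers of the anterior and the posterior palate.

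Pax9 (ENSMUSG00000001497) lies on the plus strand at chr12:56691767-56712822 in GRCm38. Its neighbour Slc25a21 (ENSMUSG00000035472), a mitochondrial carrier for oxoadipate, lies on the minus strand at chr12:56712634-57197472, so the ends of the pair overlap by 189 bases. The start regions of this pair are shown because Slc25a21 had the largest fitted difference among the genes that passed as higher in the comparison that follows, and because its start lies far from that of Pax9 although the gene ends overlap. Both are RefSeq promoter windows of build GRCm38.p6, from 250 bases before to 50 bases after a transcription start, written 5′ to 3′ on the strand of the gene. Capitals mark CANNTG, the E-box that basic helix-loop-helix factors such as Twist1 bind and that reads the same on both strands.
Pax9 promoter, chr12:56695221-56695520, plus strand: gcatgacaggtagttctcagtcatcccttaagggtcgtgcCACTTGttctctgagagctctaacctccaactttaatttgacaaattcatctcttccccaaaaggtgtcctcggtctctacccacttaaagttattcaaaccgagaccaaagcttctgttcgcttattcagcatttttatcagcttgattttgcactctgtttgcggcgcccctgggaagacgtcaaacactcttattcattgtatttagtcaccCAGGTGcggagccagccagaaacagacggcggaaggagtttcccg
Slc25a21 promoter, chr12:57197423-57197722, minus strand: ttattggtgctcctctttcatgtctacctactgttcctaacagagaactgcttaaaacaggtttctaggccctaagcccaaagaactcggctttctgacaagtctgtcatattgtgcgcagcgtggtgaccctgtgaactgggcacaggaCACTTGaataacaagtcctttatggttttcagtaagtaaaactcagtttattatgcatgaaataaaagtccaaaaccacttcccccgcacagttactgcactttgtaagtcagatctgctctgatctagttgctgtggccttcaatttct
The Pax9 window holds 2 matches and the Slc25a21 window 1. RefSeq gives Slc25a21 another start, with a window at chr12:57160594-57160893 that holds 2 matches and is not shown. A match is found in 72.3% of all 32851 promoter windows of this length, so its presence sets neither gene apart.

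Summed over cells, the Pax9-positive cells held 409819, 608132 and 1344753 UMIs at the 3 stages and the Pax9-0 cells 2531087, 1706300 and 2534710. Levels are given in CPM, the usual depth-scaled unit in which the UMIs of a gene are divided by all UMIs of the summed cells and brought to one common total. A single UMI was worth 2.44, 1.64 and 0.744 CPM in the members. The Pax9-positive cells were deeper, with medians of 3449, 2583.5 and 3095 UMIs per cell against 2475, 1759.5 and 1854. The 3 libraries shared 3, 1 and 1 cell barcodes between pairs.

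Most members rested on a single Pax9 molecule. Exactly 1 Pax9 UMI was seen in 60, 138 and 224 of the members in stage order, 2 UMIs in 12, 36 and 71, and 3 or more in 9, 16 and 62, with highest counts of 5, 6 and 9. Members with 1 Pax9 UMI had median totals of 3249.5, 2339 and 2525 UMIs, and members with at least 2 had 5252, 3721.5 and 4106. At the edge of the gene minimum, 0, 1 and 3 members had 500 to 549 genes, and 0, 3 and 5 barcodes with at least 450 but under 500 genes would otherwise have qualified. Before the other conditions, 127, 286 and 492 cells had a Pax9 UMI. Of these, 31, 41 and 47 lacked a mesenchymal UMI, 13, 36 and 39 had Epcam or Krt14, 2, 16 and 32 had Pecam1, 3, 8 and 11 had Tyrobp, and 0, 22 and 24 had Sp7 or Ibsp.

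Among cells that passed the mesenchymal conditions, the share with a Pax9 UMI was 10.3% in the E13.5 library (95% Clopper-Pearson interval 8.25 to 12.6), 20.3% in E14.5 (17.8 to 23.1) and 25.5% in E15.5 (23.2 to 27.8). After thinning every cell to 1500 UMIs before the gate it was 5.16% (3.26 to 7.71), 16.0% (13.1 to 19.2) and 18.8% (16.3 to 21.4). The share was lowest at E13.5 with both counts, and the intervals of E13.5 and E14.5 did not overlap. As a background, cells with at least 3 UMIs over the endothelial and myeloid genes Cdh5, Kdr, Tek, Fcer1g, Ctss and Csf1r had a Pax9 UMI in 4 of 31, 11 of 99 and 11 of 130 cells (12.9%, 11.1% and 8.46%), with median totals of 4579, 3015 and 2777.5 UMIs. Thinned, these were 3.85% (0.0973 to 19.6), 2.53% (0.308 to 8.85) and 3.19% (0.663 to 9.04). At E13.5 the share in the gated cells lay within the background interval, and a single Pax9 UMI in an E13.5 cell cannot be told apart from free RNA. At E14.5 and E15.5 the thinned shares lay above the background intervals.

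**Figure D1:**
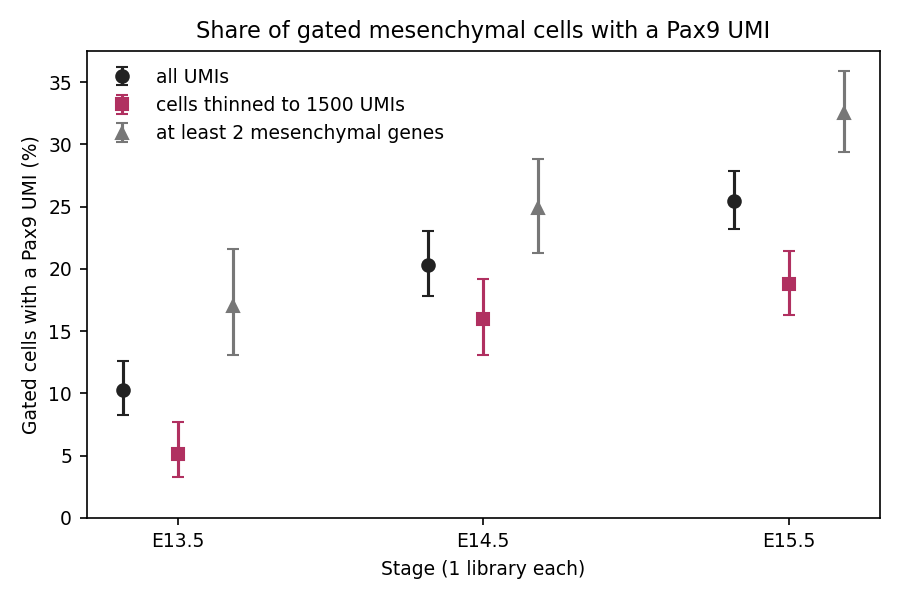
Percent of gated mesenchymal cells with at least 1 Pax9 UMI at each stage (1 library each), with 95% Clopper-Pearson intervals, counted on all UMIs, after thinning each cell to 1500 UMIs, and in cells with UMIs of at least 2 of the 5 mesenchymal genes. E13.5 is lowest by each count, at 10.3%, 5.16% and 17.0%, and E15.5 is highest at 25.5%, 18.8% and 32.6%.

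The mesenchymal label was checked against marker genes. Of the 9 mesenchymal markers, 6 belong to the rule (Pax9 and the 5 gate genes), so their sum is no check. Col1a2, a collagen chain of mesenchyme that the rule does not read, was at 405, 2376 and 2545 CPM in Pax9-positive cells and 365, 2279 and 2762 CPM in Pax9-0 cells. Col3a1, another fibrillar collagen, was at 349, 1288 and 1327 CPM against 280, 1266 and 1419 CPM. Both collagens were abundant in either set. Prrx1, a homeobox factor of limb and facial mesenchyme, was the most frequent gate gene, seen in 60 of 81, 157 of 190 and 296 of 357 members. Only 1 of the 5 gate genes was seen in 27, 58 and 91 members, and all of Prrx1, Twist1 and Pdgfra in 9, 34 and 78. The 9 epithelial markers summed to 33 to 44 CPM in members, the 7 endothelial markers to 12 to 36 CPM and the 7 myeloid markers to 2 to 8 CPM. Of these lists, 2, 1 and 0 epithelial, 5, 1 and 1 endothelial and 6, 3 and 3 myeloid genes were at 0 in members at the 3 stages.

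Neuronal RNA went against a clean mesenchymal label at E13.5. The 8 neuronal markers summed to 1545 CPM in members at E13.5, 201 CPM at E14.5 and 136 CPM at E15.5, and to 1442, 253 and 215 CPM in Pax9-0 cells. A UMI of Elavl3, Elavl4, Stmn2, Tubb3, Gap43 or Sox10 was seen in 64.2%, 25.8% and 25.8% of members and in 59.3%, 23.4% and 19.2% of Pax9-0 cells. Tubb3, a neuronal tubulin, was found after thinning in 20.3% of E13.5 members, 20.6% of E13.5 Pax9-0 cells and 38.5% of the 26 background cells of that stage. Red-cell transcripts were also high, with 7 erythroid genes at 14919, 4529 and 16651 CPM in members and 15935, 10230 and 6973 CPM in Pax9-0 cells. At E13.5 303 of the 389 Hba-x UMIs of members, and 1136 of their 1529 Hbb-y UMIs, lay in a single cell each.

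**Figure D2:**
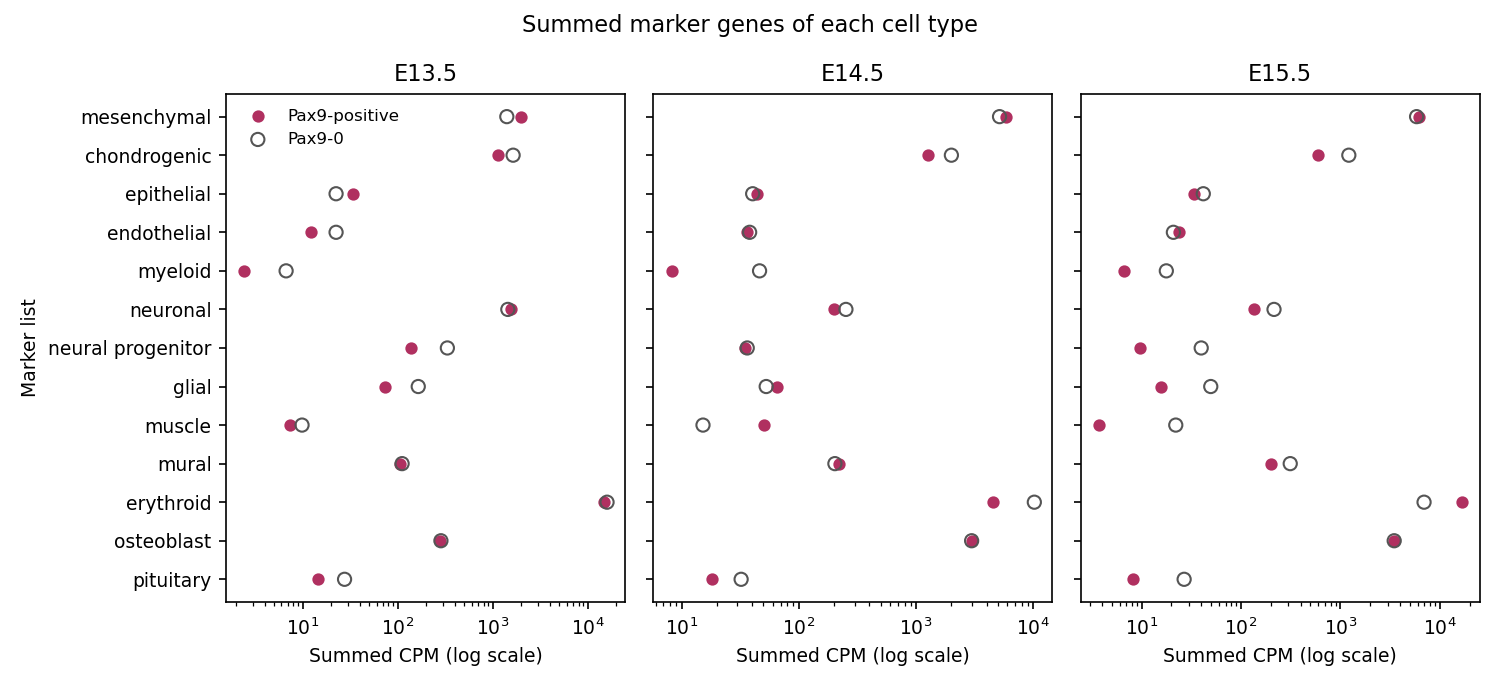
Summed CPM (log scale) of the marker genes of 13 cell types in Pax9-positive (filled) and Pax9-0 (open) cells, 1 panel per stage, 1 library each. The mesenchymal sum includes the genes of the rule. Chondrogenic markers lie lower in Pax9-positive cells at each stage, and neuronal markers are highest at E13.5 in both sets, at 1545 and 1442 CPM.

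Across all genes, Pax9-positive cells differed from Pax9-0 cells of the same library in a small set of genes that recurred at the 3 stages. The transcription factor Osr2, the Pax9 neighbour Slc25a21 and the guidance receptor Epha3 were higher, and the ligand Bmp5, the cartilage factor Sox6 and the secreted proteins Otor and Cthrc1 were lower. The test was edgeR's quasi-likelihood test on UMIs summed per library and Pax9 status, with the library as a block and Benjamini-Hochberg adjustment, and it asks only whether a difference recurs over the 3 libraries. Of 7543 genes with a mean of at least 20 CPM, 8 were higher and 8 lower at an adjusted p under 0.05 (0.106% each way), and 556 (7.37%) had an unadjusted p under 0.05. The log2 ratio was above 0 in all 3 libraries for 1061 genes (14.1%) and below 0 in all 3 for 1072 (14.2%). With 2 residual degrees of freedom the calls lean on single libraries. Without E14.5 no gene passed with edgeR's test (477 had an unadjusted p under 0.05), and without E13.5 or E15.5 it called 28 and 17 higher and 34 and 8 lower. DESeq2 called 4 higher and 1 lower. With each cell thinned to 1500 UMIs edgeR called 24 higher and 29 lower, and 6 of the 16 genes remained called. With Pax9-0 cells weighted to the depths of the members, 13 of the 16 remained called.

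Osr2 (ENSMUSG00000022330), at chr15:35296098-35303305 on the plus strand of GRCm38, is a zinc-finger factor needed for palatal shelf growth. In Pax9-positive cells it was at 53.7 CPM at E13.5 (22 UMIs), 78.9 CPM at E14.5 (48 UMIs) and 58.7 CPM at E15.5 (79 UMIs). In Pax9-0 cells it was at 12.6, 36.9 and 26.4 CPM. The lowest Pax9-positive level, at E13.5, lay above the highest Pax9-0 level, at E14.5. The fitted log2 fold change was 1.33 ± 0.22 (SE, 3 libraries, adjusted p = 0.0325, edgeR). After thinning to 1500 UMIs, Osr2 was found in 10.1% (4.18 to 19.8), 10.2% (5.94 to 16.0) and 9.31% (6.23 to 13.3) of members, in 1.20%, 5.79% and 2.98% of Pax9-0 cells, and in 0 of 26, 0 of 79 and 0 of 94 background cells, with upper bounds of 13.2%, 4.56% and 3.85%. At E13.5 the share in members lay under that bound, so it cannot be told apart from free RNA there, and at E14.5 and E15.5 it lay above. No single Pax9-positive cell held more than 5 Osr2 UMIs. Its fold change kept its sign in all 19 alternatives that tested it (1.05 to 1.47), but it passed in only 10 of them. It missed at an adjusted p of 0.0515 after thinning, 0.116 without cells holding a neuronal UMI and 0.231 with at least 2 Pax9 UMIs (edgeR), and at 0.0761 in DESeq2.

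Slc25a21 gave 107, 146 and 226 CPM in Pax9-positive cells (44, 89 and 304 UMIs) and 11.1, 43.4 and 71.4 CPM in Pax9-0 cells. It was higher in Pax9-positive cells at each stage, with 95% counting intervals of 5.91 to 16.2, 2.45 to 4.66 and 2.63 to 3.83 times in stage order, with a fitted log2 fold change of 1.97 ± 0.22 (adjusted p = 0.00894, edgeR). At E13.5 12 of the 44 UMIs in members were in 1 cell. After thinning, Slc25a21 was found in 5.80%, 13.4% and 19.0% of members and 3.85%, 2.53% and 1.06% of background cells. The E13.5 share in members lay within the background interval (0.0973 to 19.6), so it cannot be told apart from free RNA there. Whether the counting used the strand is not given in the sources used here, and Pax9 and Slc25a21 overlap at their ends, so reads of one gene could have been given to the other and the value of Slc25a21 is uncertain. Mipol1, the only other gene of a list of 5 neighbours of Pax9 that was abundant enough to test, was at 41.5, 36.2 and 46.8 CPM against 31.2, 46.9 and 59.6 CPM, with a log2 fold change of -0.19 ± 0.20 (adjusted p = 0.92, edgeR).

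The other 6 genes that passed as higher include membrane and signalling proteins. Epha3, an ephrin receptor, was the most abundant, at 769, 1658 and 1287 CPM against 431, 877 and 913 CPM, and its log2 fold change was 0.75 ± 0.11. Pcdh15, a protocadherin known from the inner ear, was at 376, 886 and 611 CPM against 168, 391 and 408 CPM (0.95 ± 0.13). Rgs6, a regulator of G-protein signalling, was at 36.6, 145 and 87.7 CPM against 15.4, 51.0 and 51.7 CPM (1.12 ± 0.18). Each of these was higher in Pax9-positive cells in every library, with adjusted p of 0.023, 0.0128 and 0.0314 by edgeR. Slc24a2, a potassium-dependent sodium and calcium exchanger, had a log2 fold change of 1.21 ± 0.18, and Cyp7b1, an oxysterol hydroxylase, 0.72 ± 0.12. Rgs6, Slc24a2 and Cyp7b1 missed in DESeq2 (adjusted p = 0.119, 0.171 and 0.505), and Rgs6 and Cyp7b1 missed with depth weights (0.0646 and 0.0519, edgeR). Pcdh15 missed with at least 2 Pax9 UMIs (0.152, edgeR), and it, Rgs6 and Cyp7b1 missed with at least 2 mesenchymal genes. Adam2, a sperm membrane protein, was at 12.2, 204 and 42.4 CPM against 2.77, 41.0 and 24.1 CPM (1.68 ± 0.28, adjusted p = 0.0325, edgeR). Its UMIs were held by few cells, 6 of the 190 members at E14.5 with up to 49 UMIs in 1 cell. Its direction reversed to -1.11 after thinning and to -0.81 under the strictest conditions on cells, and with UMIs capped per cell it did not pass (0.97, adjusted p = 0.128, edgeR), so no difference of the populations can be read from it. Epha3 missed after thinning (0.47, adjusted p = 0.225, edgeR).

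The 8 lower genes include a cartilage factor, a ligand and secreted proteins. Sox6, a transcription factor that acts with Sox9 in chondrocytes, was at 373, 383 and 303 CPM in Pax9-positive cells and 572, 811 and 671 CPM in Pax9-0 cells. Its CPM was lower at each stage, with a log2 fold change of -0.96 ± 0.12 (adjusted p = 0.011, edgeR). After thinning, Sox6 was found in 39.1%, 19.1% and 16.6% of members and 37.3%, 34.5% and 28.4% of Pax9-0 cells. At E13.5 its share of cells was therefore not lower in members. Otor, a secreted protein of cartilage and the cochlea, had 1, 6 and 1 UMIs in members (2.44, 9.87 and 0.744 CPM) against 31.2, 45.1 and 11.8 CPM, with a log2 fold change of -2.81 ± 0.39. At E15.5 18 of the 30 Otor UMIs of Pax9-0 cells were in 1 cell. Bmp5, a ligand of skeletal condensations, had 6, 7 and 10 UMIs in members (14.6, 11.5 and 7.44 CPM) against 28.4, 50.4 and 35.1 CPM (-1.90 ± 0.30). Its E13.5 counting interval for the ratio, 0.183 to 1.18 times, included 1, and those of E14.5 and E15.5 did not. Cthrc1, a secreted collagen-triple-helix protein, was at 46.4, 23.0 and 23.8 CPM against 92.1, 72.1 and 72.2 CPM (-1.43 ± 0.19). The adjusted p of Otor, Bmp5 and Cthrc1 were 0.0161, 0.0314 and 0.0128 by edgeR. All 3 missed after thinning (0.208, 0.0662 and 0.267 by edgeR) and in DESeq2 (0.0638, 0.196 and 0.0544), and Otor and Bmp5 also missed with at least 2 Pax9 UMIs (0.094 and 0.12 by edgeR). Their signs held in each alternative that tested them.

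Sorcs1, a sorting receptor, had a log2 fold change of -1.26 ± 0.20, Pdzd2, a PDZ-domain protein, -0.86 ± 0.13, and Lrfn5, a neuronal adhesion protein, -0.78 ± 0.13. Each was lower in every library, but all 3 missed after thinning (adjusted p = 0.879, 0.109 and 0.245, edgeR), without E15.5 and in DESeq2, and Pdzd2 also missed with depth weights (0.0795, edgeR). Ubash3a, a T-cell signalling protein, passed with a log2 fold change of -4.49 ± 0.53, but 128 of its 132 UMIs in E14.5 Pax9-0 cells were in a single cell and the other 2 libraries held 7 and 1 UMIs there. Its call therefore describes 1 cell and not the Pax9-0 population.

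**Figure D3:**
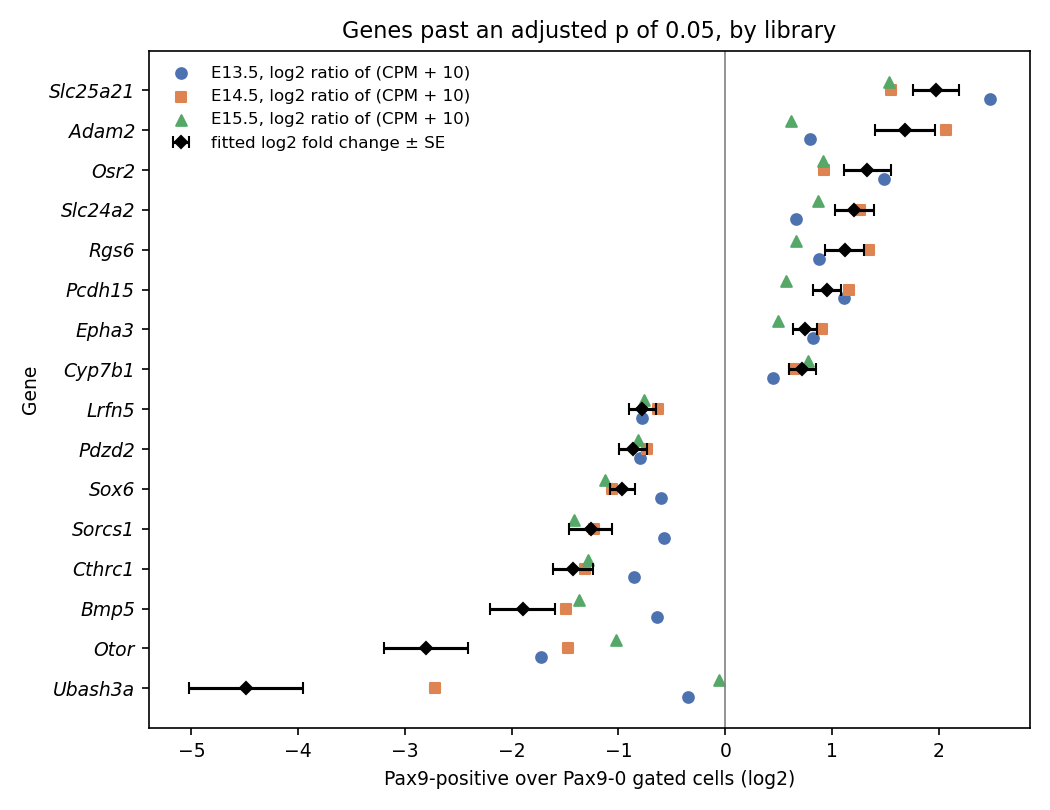
Log2 ratio of Pax9-positive to Pax9-0 gated cells for the 16 genes past an adjusted p of 0.05, with the 3 libraries as coloured points (10 CPM added to each level) and the fitted log2 fold change with its SE as black diamonds. All 3 points lie on the same side of 0 for each gene, and for Ubash3a the E14.5 point stands far from the other libraries.

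To see how far single cells carry these results, the UMIs of a gene in any 1 cell were capped at 10 before summing, an alternative chosen after the data had been seen. The cap acts most on abundant genes of deep cells, and the members are the deeper cells. Of 8055 genes then tested, 29 were higher (0.36%) and 43 lower (0.534%), among them 14 of the 16 genes above, all but Adam2 and Ubash3a. The palate regulators Barx1 (log2 fold change 0.69 ± 0.13, adjusted p = 0.00516, edgeR) and Shox2 (0.54 ± 0.13, adjusted p = 0.0298, edgeR) passed as higher with the cap and missed in the uncapped fit. The same held for the neural crest factor Tfap2b (1.04 ± 0.19, adjusted p = 0.00456, edgeR) and the secreted Wnt modulator Sfrp2 (0.56 ± 0.10, adjusted p = 0.00431, edgeR). Lower with the cap were the osteoblast factor Runx2 (-0.64 ± 0.10, adjusted p = 0.00132, edgeR), the bone phosphatase Alpl (-0.95 ± 0.19, adjusted p = 0.00838, edgeR) and the Bmp receptor Bmpr1b (-0.82 ± 0.17, adjusted p = 0.0123, edgeR). The cartilage matrix genes Matn1 (-1.76 ± 0.39), Acan (-1.33 ± 0.30) and Col9a1 (-1.21 ± 0.27) were also lower, at adjusted p of 0.018, 0.0214 and 0.0204 by edgeR. Matn1 and Col9a1 are named here after their values were seen.

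Of 24 palate mesenchyme regulators, 20 were abundant enough to test, and 1 of them, Osr2, passed as higher and none as lower. The ratio was above 0 in all 3 libraries for 9 of the 20 and below 0 in all 3 for 1, Efnb1, beside 14.1% and 14.2% of all genes. Their median log2 fold change was 0.33, beside 0.00 over all genes tested. Barx1, a homeobox factor of molar and posterior palate mesenchyme, was at 212, 163 and 189 CPM in Pax9-positive cells against 130, 128 and 98.6 CPM. It missed the threshold without the cap (0.68 ± 0.14, adjusted p = 0.0614, edgeR). Shox2, a homeobox factor of the anterior palate, was at 87.8, 179 and 280 CPM against 49.8, 126 and 204 CPM (0.54 ± 0.12, adjusted p = 0.122, edgeR). Both gave higher levels in Pax9-positive cells at each stage.

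Msx1, a homeobox factor of the anterior palate and tooth mesenchyme, was at 200, 135 and 219 CPM in Pax9-positive cells against 64.4, 149 and 190 CPM. The groups were apart only at E13.5, where 31 of the 82 UMIs came from 1 cell, and the gene did not pass (0.48 ± 0.24, adjusted p = 0.707, edgeR). Lhx8 (0.49 ± 0.14), Tbx3 (0.45 ± 0.17) and Inhba (0.36 ± 0.18) had ratios above 0 in each library without passing, at adjusted p of 0.263, 0.53 and 0.72 by edgeR. Osr1, the paralogue of Osr2, was at 22, 31.2 and 43.9 CPM against 31.2, 31.1 and 41.0 CPM (-0.05 ± 0.21, adjusted p = 1, edgeR). Of 18 dental mesenchyme genes 13 were tested, none passed by edgeR without the cap or by DESeq2 (5 had an unadjusted p under 0.05 by edgeR, beside 7.37% of all genes), 6 were above 0 and 1 below 0 in all libraries (14.1% and 14.2% over all genes), and the median log2 fold change was 0.34, beside 0.00 over all genes. Zfhx3 had -0.40 ± 0.14 and Fgf7 -0.52 ± 0.26, and neither passed.

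Pax1, the paralogue of Pax9, had 0, 0 and 3 UMIs in Pax9-positive cells and was under the minimum for testing. Of the 12 genes of the Pax family and its partners, 5 were tested and none passed by edgeR or DESeq2, with 1 at an unadjusted p under 0.05 in edgeR's test (7.37% of all genes). Eya1, a co-activator of homeobox factors, was at 154, 192 and 201 CPM against 111, 226 and 259 CPM, Pax3 at 41.5, 156 and 207 CPM against 43.1, 114 and 193 CPM, and Six2 at 43.9, 42.8 and 44.6 CPM against 22.9, 42.2 and 28.4 CPM. Eya4 had a log2 fold change of -0.04 ± 0.12.

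**Figure D4:**
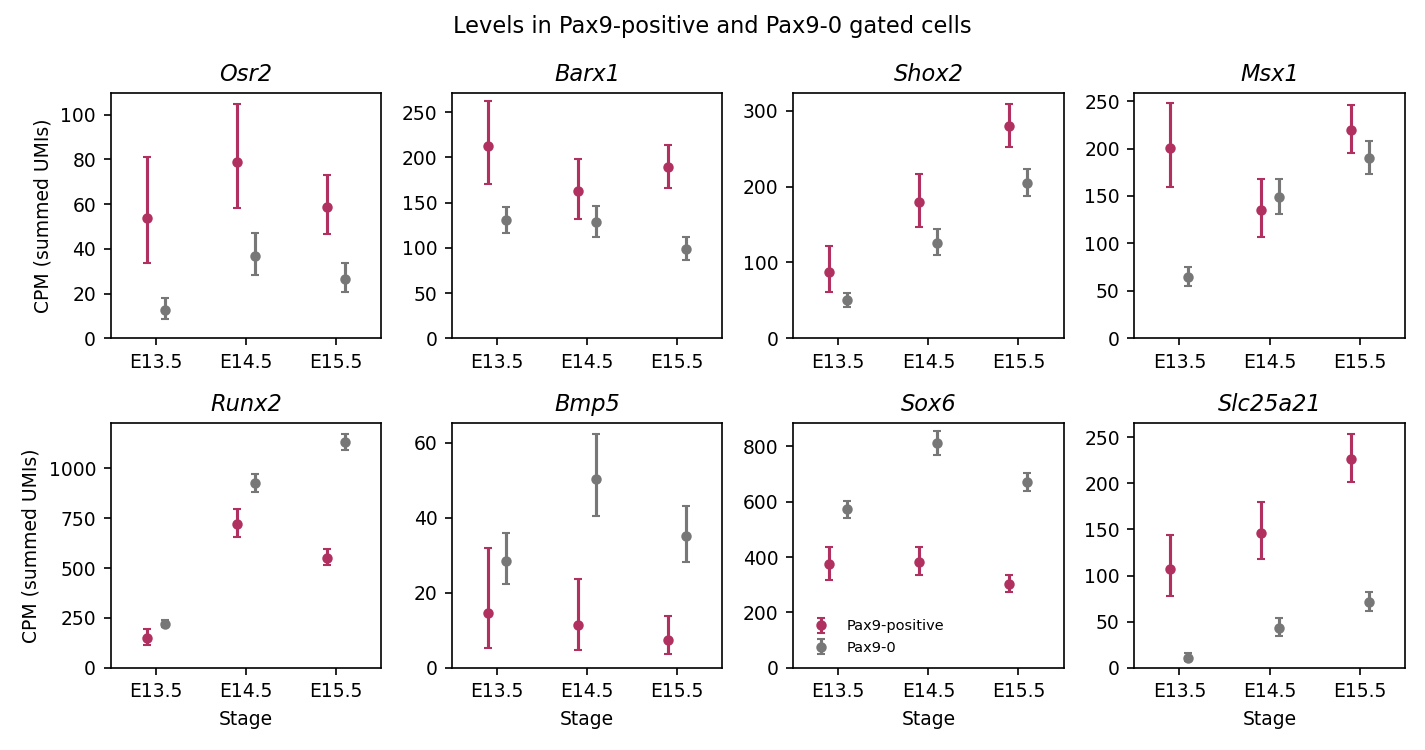
CPM in Pax9-positive and Pax9-0 gated cells at each stage (1 library each) for 8 genes, with exact Poisson 95% intervals that cover counting error only. Osr2 and Slc25a21 lie higher and Sox6 lower in Pax9-positive cells at each stage, and Msx1 is apart only at E13.5.

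In the Bmp and Tgfb list 16 of 23 genes were tested, Bmp5 passed as lower, and 6 were below 0 and 4 above 0 in all libraries, beside 14.2% and 14.1% of all genes, with a median log2 fold change of -0.12 beside 0.00. Bmpr1b, a type I Bmp receptor of cartilage, was at 83.0, 67.4 and 19.3 CPM against 186, 97.3 and 34.7 CPM (-0.85 ± 0.17, adjusted p = 0.0614, edgeR). Tgfb2, a ligand, and Tgfbr2, its receptor, had 0.37 ± 0.12 and 0.43 ± 0.18 and did not pass. Among 9 chondrogenic markers Sox6 passed, 6 were below 0 and none above 0 in all libraries, and the median log2 fold change was -0.96. Over all genes 0.106% passed as lower and 14.2% were below 0 in all libraries. The sum of the 9 markers was 1144, 1273 and 597 CPM in members and 1639, 2006 and 1219 CPM in Pax9-0 cells. Neural progenitor and glial markers moved in part with them, with sums of 137, 34.5 and 9.67 CPM against 333, 36.3 and 39.9 CPM for the first list and 73.2, 65.8 and 15.6 CPM against 165, 52.7 and 49.7 CPM for the second. The genes of these lists that were tested, Sox2 and Fabp7, were below 0 in all 3 libraries and did not pass without the cap (adjusted p = 0.474 and 0.0614, edgeR). With the cap Fabp7 passed as lower (-1.38, adjusted p = 0.00578, edgeR). The part of such RNA in the lower genes was not tested. Sox9, the founding cartilage factor, was at 110, 145 and 82.5 CPM against 142, 115 and 74.2 CPM (0.06 ± 0.15, adjusted p = 0.965, edgeR). With every cell that had a UMI of Col2a1, Col9a1, Matn1 or Acan left out, edgeR called 2 genes higher and 7 lower. Of the 16 genes, 5 remained called, Sox6 and Slc25a21 among them. Osr2, Epha3, Bmp5, Otor and Cthrc1 were among the 11 that were no longer called.

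Of 16 osteogenic genes, 8 were tested and none passed by edgeR without the cap or by DESeq2 (4 had an unadjusted p under 0.05 by edgeR, beside 7.37% of all genes), with a median log2 fold change of -0.34, beside 0.00. Over all genes 0.106% passed each way. Sp7 and Ibsp were barred by the rule, which also bears on other osteoblast genes. Runx2, the master factor of osteoblasts, was at 151, 724 and 553 CPM in Pax9-positive cells against 220, 926 and 1132 CPM (-0.67 ± 0.13, adjusted p = 0.0662, edgeR). After thinning, Runx2 was found in 17.4%, 35.0% and 36.2% of members and 17.8%, 41.7% and 46.4% of Pax9-0 cells. Among fibroblast and matrix genes 20 of 21 were tested, none passed by edgeR or DESeq2 (7 had an unadjusted p under 0.05 by edgeR, beside 7.37% of all genes), and the median log2 fold change was 0.02. Col1a1, the main fibrillar collagen chain, was at 266, 2965 and 3386.5 CPM against 275, 2880.5 and 3378 CPM (0.00 ± 0.11).

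Wnt genes are named among the aims of the series, and Sfrp2 passed with the cap. None of 2 tested ligands, 9 antagonists, 6 targets and 12 receptors and enhancers passed by edgeR or DESeq2, with 1, 5, 3 and 2 of them at an unadjusted p under 0.05 in edgeR's test (7.37% of all genes), and the median log2 fold changes of these lists were -0.23, 0.17, 0.28 and 0.18. Wnt5a, a ligand of the anterior palate, was at 90.3, 186 and 151 CPM in Pax9-positive cells against 55.7, 161 and 160 CPM (0.18 ± 0.15). Axin2, a feedback target of the pathway, was at 36.6, 49.3 and 67.7 CPM against 30.0, 39.9 and 42.2 CPM (0.49 ± 0.18, adjusted p = 0.53, edgeR). Lef1, a transcription factor of the pathway, had 0.07 ± 0.15, and Dkk2, a secreted antagonist, -0.38 ± 0.12. Sfrp2 was at 351, 830 and 937 CPM against 177, 635 and 630 CPM (0.62 ± 0.12, adjusted p = 0.0614, edgeR). Sost, which encodes sclerostin, had 0 UMIs in Pax9-positive and in Pax9-0 cells of every library. A count of 0 leaves room for a level of 7.32, 4.93 and 2.23 CPM in the Pax9-positive cells.

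Some signalling genes had their largest ratio at E13.5. Lgr5, a receptor for R-spondins, was at 124 CPM in Pax9-positive cells and 31.2 CPM in Pax9-0 cells at E13.5, and at 113 against 93.2 CPM and 120 against 86.0 CPM later, and 17 of its 51 E13.5 UMIs in members were in 1 cell. Its counting interval excluded 1 at E13.5 (2.75 to 5.74 times) and at E15.5 (1.14 to 1.72). Rspo2, an R-spondin, was at 134 against 44.6 CPM at E13.5, then 39.5 against 42.8 CPM and 70.6 against 66.3 CPM. Cyp26b1, which degrades retinoic acid, was at 51.2 against 12.2 CPM, then 80.6 against 53.9 CPM and 58.0 against 50.9 CPM, with intervals that excluded 1 at E13.5 and E14.5 (2.29 to 7.52 and 1.03 to 2.14 times). None of the 3 passed by edgeR (adjusted p = 0.36, 0.711 and 0.603), and whether the stages differ was not tested. Of the 10 Hedgehog receptors and targets tested none passed by edgeR or DESeq2 (1 had an unadjusted p under 0.05 by edgeR, near the 7.37% of all genes), and Ptch1, receptor and target of the pathway, was at 161, 243 and 212 CPM against 105, 243 and 233 CPM. In the ectodysplasin pathway, Eda was at 46.4, 324 and 332 CPM against 79.4, 311 and 412 CPM (-0.23 ± 0.14, adjusted p = 0.784, edgeR). Among 21 axon guidance and Eph genes Epha3 passed as higher (0.106% of all genes), and the median was 0.02. With the cap Epha7, another ephrin receptor, passed too (0.43, adjusted p = 0.0147, edgeR). In the S phase list and in the G2 and M phase list 14 genes each were tested, 0 passed by edgeR or DESeq2, 0 had an unadjusted p under 0.05 by edgeR (7.37% of all genes), and the medians were -0.02 and 0.13.

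Members with a UMI of a gene were counted one gene at a time, and these shares do not sort the cells into kinds, since they move with depth and a cell without a UMI may still express the gene. Without thinning, Runx2 was seen in 23, 77 and 167 members (28.4%, 40.5% and 46.8%), in 24.3%, 46.6% and 49.0% of Pax9-0 cells and in 16.1%, 21.2% and 14.6% of background cells. After thinning, Lum, a proteoglycan of fibroblasts, was found in 10.1%, 24.2% and 28.3% of members, in 7.19%, 19.9% and 28.4% of Pax9-0 cells and in 3.85%, 5.06% and 4.26% of background cells. Sox9 was found in 15.9%, 15.3% and 10.0% of members, in 15.6%, 10.6% and 8.15% of Pax9-0 cells and in 0%, 5.06% and 3.19% of background cells. The intervals of Sox9 in members overlapped between all stages. After thinning, the anterior gene Shox2 was found in 11.6%, 18.5% and 29.7% of members, in 5.39%, 14.6% and 19.9% of Pax9-0 cells and in 19.2%, 2.53% and 5.32% of background cells. At E13.5 its share in members was therefore not above that of the background. The posterior gene Barx1 was found in 20.3%, 18.5% and 20.7% of members, in 16.4%, 14.8% and 11.0% of Pax9-0 cells and in 7.69%, 3.80% and 0% of background cells. Top2a, a gene of dividing cells, was found after thinning in 36.2%, 18.5% and 18.6% of members, in 29.9%, 22.5% and 19.9% of Pax9-0 cells and in 53.8%, 32.9% and 26.6% of background cells. The share in members was not above the background at any stage. The background cells can hold Top2a RNA of their own, so this comparison cannot tell whether the Top2a of members is free RNA.

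Between stages, most matrix genes were higher and neuronal and embryonic globin genes lower in the E14.5 and E15.5 libraries than in the E13.5 library. From E13.5 to E15.5, 544 of 4916 genes (11.1%) were at least 2-fold higher and 427 (8.69%) at least 2-fold lower, on CPM with 10 added and at 50 CPM or more in one stage. Most of this lay in the first step, where 511 of 4912 genes (10.4%) were higher and 392 (7.98%) lower in the E14.5 library. From E14.5 to E15.5 there were 44 of 4518 (0.974%) higher and 56 (1.24%) lower. In Pax9-0 cells the counts from E13.5 to E15.5 were 543 of 4843 (11.2%) and 337 (6.96%), those of the first step 380 (7.99%) and 294 (6.18%), and those of the second step 22 (0.499%) and 24 (0.544%). Stage, library, and the embryos pooled cannot be told apart.

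Of 20 fibroblast and matrix genes, 16 were at least 2-fold higher and none 2-fold lower in the E15.5 library than in that of E13.5, and 13 were at least 2-fold higher in that of E14.5. Between those outer stages the list had a median log2 ratio of 2.00, beside 2.23 in Pax9-0 cells and -0.05 over all genes tested. Vcan (-0.07) and Hapln1 (-0.39), named after their values were seen, lay below 0. Col1a1 was at 266, 2965 and 3386.5 CPM, a log2 ratio of 3.62 from E13.5 to E15.5, beside 3.57 in Pax9-0 cells. Eln, elastin, was at 29.3, 370 and 471 CPM (3.61, beside 3.21), and Dcn at 22, 197 and 316 CPM (3.35, beside 2.41). Aspn, a small proteoglycan of periosteum and ligament, was at 39.0, 283 and 487 CPM (3.34, beside 3.59), and Igf1, a growth factor, at 22, 375 and 303 CPM (3.29, beside 1.62). Each of these was higher in both later libraries than at E13.5. Ccnb1ip1 and Pappa2, which cleaves Igf binding proteins, were also among the 8 highest ratios, at 3.55 and 3.44. Ptgds was listed there too, but all 150 of its UMIs at E15.5 were in 1 cell.

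The lowest ratios were those of neuronal and embryonic globin genes. Nrxn3, a synaptic adhesion protein, was at 1432, 47.7 and 16.4 CPM (log2 ratio -5.77 from E13.5 to E15.5), and Stmn2, a neuronal tubulin binder, at 468, 23.0 and 11.2 CPM (-4.50). Rtn1, Erbb4, Tubb2b and Dcx were at 444, 422, 468 and 200 CPM at E13.5 and 5.95, 8.92, 13.4 and 1.49 CPM at E15.5. The same genes were low in Pax9-0 cells at E15.5, with ratios of -3.97, -3.16, -3.99 and -3.58. All 8 neuronal markers were at least 2-fold lower at E15.5. With the cells that held a neuronal UMI left out, 29, 141 and 265 members remained. Then 671 genes were at least 2-fold higher and 791 at least 2-fold lower at E15.5 than at E13.5.

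In the second step 6 of the 9 cartilage markers were at least 2-fold lower. Their median log2 ratio of E15.5 to E14.5 in Pax9-positive cells was -1.82, beside -1.20 in Pax9-0 cells and -0.01 over all genes tested. Col2a1, the cartilage collagen, was at 168, 189 and 12.6 CPM in Pax9-positive cells and at 198, 374 and 125 CPM in Pax9-0 cells. Uty and Ddx3y, Y-linked genes, had 68 and 43 UMIs in E14.5 members and 0 in those of E13.5 and E15.5. The sex of the pooled embryos therefore cannot be told apart from the stage at E14.5. Of the other highest and lowest genes of single steps, Zfp112 had 132 of 140 UMIs, Gm36266 66 of 68 and Ptcra 77 of 77 in 1 cell, so they describe those cells.

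**Figure D5:**
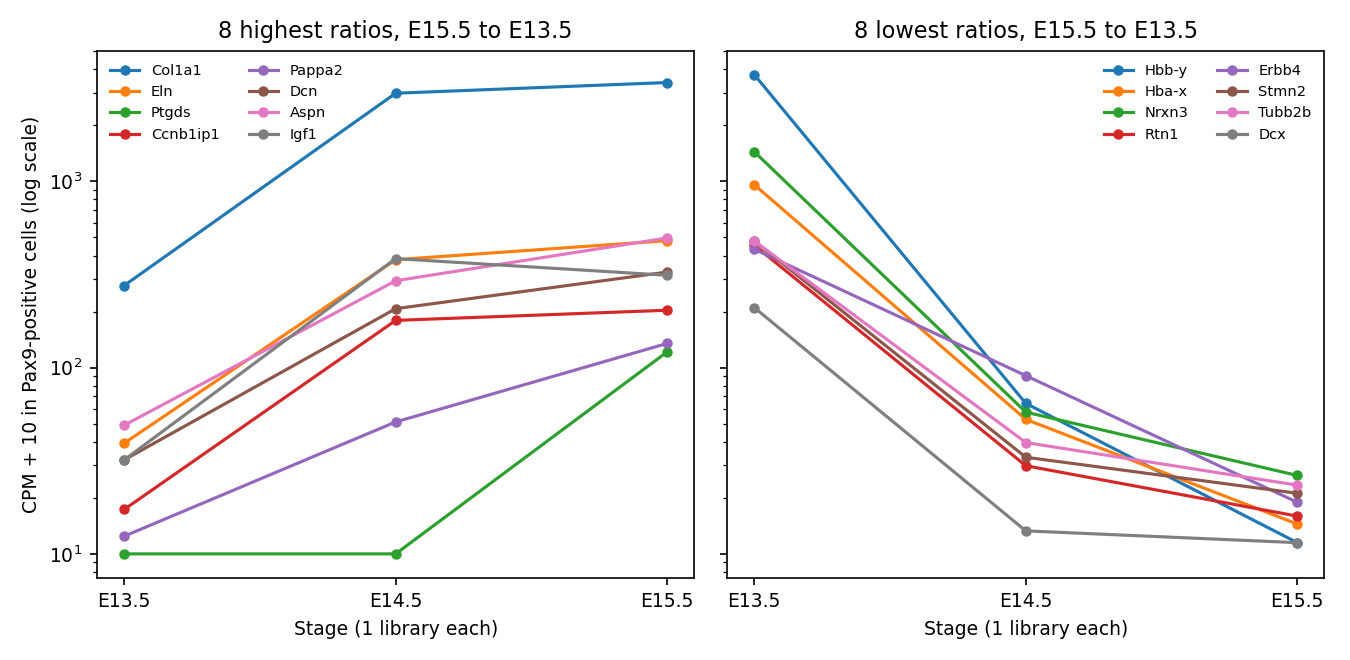
CPM plus 10 (log scale) in Pax9-positive cells at each stage, 1 library each, for the 8 genes with the highest and the 8 with the lowest ratio of E15.5 to E13.5. The larger part of each difference lies between E13.5 and E14.5, except for Ptgds, whose E15.5 value comes from 1 cell, and Erbb4.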

How the data were processed

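Single-cell RNA was measured by the 10x Genomics droplet method in 3 libraries of mouse palatal shelves. The deposited files hold UMI counts per gene and barcode, made by the authors with Cell Ranger 6.1.2, per the submitters' processing notes. Whether counting used the strand is not given in the sources used here. The cells were chosen and the UMIs summed per library and Pax9 status in Python 3.11.15 (pandas 2.3.3, numpy 2.4.6, scipy 1.17.1). The 6 sums were compared with edgeR 4.0.16 (quasi-likelihood test, TMM, library as a block, 2 residual degrees of freedom) over genes with a mean of at least 20 CPM, leaving out the 12 genes of the rule, with Benjamini-Hochberg adjustment and a threshold of 0.05. Ratios per library and between stages used CPM plus 10. Data were also simulated for the comparison of Pax9-positive with Pax9-0 cells (7543 genes), at a single dispersion (edgeR's measure of spread) of 0.0103. In these data the same edgeR test recovered 90 of 100 genes changed by a log2 fold of 1. It recovered 99 of 100 changed by 2, with 5 false calls. Recovery with a spread that differs from gene to gene, or with UMIs piled in single cells, was not tested.

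Total UMIs per sum ran from 409819 to 2534710, so that 1 UMI was worth between 0.395 and 2.44 CPM. Libraries are not biological replicates of a stage, and the p-values rest on the spread over 3 libraries of different stages, pooled in part over genes. The pooled part counted as 9.82 prior degrees of freedom in the main fit and 23.1 with the cap. It was infinite after thinning and without a filter, so counts of calls under these settings are not on an equal footing. No doublets were removed; Scrublet in scanpy 1.11.5 called 0, 3 and 2 cells by its own threshold, and an alternative left out the 109, 25 and 56 highest scores. DESeq2 1.42.0, other filters, gates and depths were tried as alternatives. The members and the gene lists were chosen with earlier results of these data known. Named genes were the called genes, filled to 12 each way by size, the 2 highest and 2 lowest tested genes of each list, all tested palate regulators and Pax family genes, a set of pathway genes, and the largest differences between stages. Some genes that this rule gives are not reported here. Other genes are named as chosen after their values were seen or as members of marker lists.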

Additional observations from a re-analysis of the deposited data

Results flagged for a closer look

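Only the named genes were screened for ratios that pointed in opposite directions in different libraries, so the share over all genes is not known. For 6 of them the ratio of Pax9-positive to Pax9-0 cells did so, each with a counting interval on its own side of 1. These intervals do not cover the piling of UMIs in single cells. The difference between stages was not tested, since each stage is 1 library. Eya1, a co-activator of homeobox factors, had a log2 ratio of 0.43 at E13.5 and -0.35 at E15.5. Sema3c, a secreted guidance protein, had 0.91, -0.76 and -0.86 in stage order, with 10 of its 28 E13.5 UMIs in 1 member. Myt1l, a neuronal transcription factor, had 0.72, -2.33 and -1.60 in stage order, with 36 of its 137 E13.5 UMIs in 1 member. At E14.5 and E15.5 only 2 of 190 and 3 of 357 members held a Myt1l UMI. In E14.5 Pax9-0 cells 55 of its 153 UMIs were in 1 cell.

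The other 3 of these genes were held by few cells. Gm10457 had 1.93 at E14.5, -1.28 at E13.5 and -0.71 at E15.5, and 33 of its 62 E14.5 UMIs were in 1 member. Gm41609 had 0.69 at E15.5 and -0.96 at E14.5, with 63 of 87 E15.5 UMIs in 1 member. Ptcra had 1.60 at E14.5 and -0.56 at E15.5, and all 77 of its E14.5 UMIs were in 1 member.

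Barcodes under 500 detected genes, which no comparison used, also held Pax9. A Pax9 UMI was present in 2 of 544 such barcodes at E13.5, in 12 of 304 at E14.5 and in 23 of 473 at E15.5.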

How the results depend on the processing

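The counts of called genes moved with most choices, and each library is 1 of 3. With edgeR's test the numbers higher and lower were 24 and 29 after thinning, 3 and 8 with at least 2 mesenchymal genes, 22 and 27 without cells holding a neuronal UMI, 7 and 13 with a minimum of 1000 genes, and 7 and 23 with at least 2 Pax9 UMIs. They were 22 and 30 at a mean of 5 CPM, 5 and 5 at 50 CPM, and 70 and 146 without a filter. DESeq2 gave 4 and 1. Chosen after seeing the data, leaving out cells with a chondrogenic UMI gave 2 and 7, all the stricter conditions together 13 and 19, and the cap per cell 29 and 43. Without the replicate block, which here is the library, edgeR called 0 and 0, with 43 genes at an unadjusted p under 0.05. Leaving out each library in turn gave 0 to 28 higher and 0 to 34 lower. Sox6 and Slc25a21 passed in 18 of 20 alternatives each and failed without the block and without E14.5.

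The share with a Pax9 UMI was 5.16%, 16.0% and 18.8% after thinning, 17.0%, 24.9% and 32.6% with at least 2 mesenchymal genes, and 27.3% and 32.0% at E14.5 and E15.5 with at least 1000 genes. The unthinned shares of members with a UMI were 22.6% and 17.1% for Osr2 at E14.5 and E15.5, 18.5%, 21.1% and 26.3% for Slc25a21, 34.7% and 42.6% for Shox2 at E14.5 and E15.5, 38.3%, 30.0% and 30.0% for Barx1, and 46.8% for Runx2 at E15.5.

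Between stages, thinning gave 1042 genes higher and 1373 lower for E15.5 over E13.5, 994 and 1197 for E14.5 over E13.5, and 244 and 261 for E15.5 over E14.5. Without neuronal UMIs 791 and 808 were lower in the comparisons with E13.5, and 73 higher and 90 lower for E15.5 over E14.5. With at least 2 Pax9 UMIs there were 874 and 724 for E14.5 over E13.5 and 171 and 165 for E15.5 over E14.5, and a pseudocount of 25 CPM gave 23 and 37 for the latter. All but the pseudocount leave fewer cells or UMIs per sum, and the cause of each move was not tested.

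Signs reversed for genes held by few cells. For Pax9-positive over Pax9-0 cells, Adam2 had -1.11 after thinning and -0.81 under the stricter conditions, and Gm10457 -3.87 with at least 2 Pax9 UMIs. For E15.5 over E14.5 in Pax9-positive cells, Zfp112 had -0.14 without neuronal UMIs. Of the named genes that did not pass, 47 changed sign in at least 1 alternative, Msx1, Sox9 and Ptch1 among them.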
